A study of Mus musculus with 13 samples.

Results

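Bone marrow taken 48 h after phlebotomy is the subject here, set against control marrow over all measured genes. It was measured on 2 of the 13 arrays of the series, chosen by the time in their labels, and compared with the 2 controls (of 3) whose title numbers lie in the same run. All mice were C57BL/6 males, 6 weeks old, on a standard chow. For phlebotomy 500 µL was drawn by retro-orbital puncture, and the femurs of these mice were taken 48 h later, while the control femurs were taken at baseline. The labels used here name no sham puncture and no hour of day. Other mice were sampled at 4, 9, 12 and 15 h, and RNA was measured on 1 Affymetrix Mouse Gene 1.0 ST array per sample.

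Blood loss lowers the oxygen carried to the kidney, which answers by secreting erythropoietin. In marrow, erythropoietin binds its receptor on erythroid precursors and acts through the kinase JAK2 and the transcription factor STAT5, which induces survival genes, feedback inhibitors such as Cish and the hormone erythroferrone (Erfe). Erythroferrone lowers hepcidin in the liver, so that more iron reaches the marrow. Precursors that survive make ribosomes, copy their DNA and divide, build heme and fill with haemoglobin.

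The 10 arrays of the first run had median log2 levels of 6.98 to 7.03, and the 3 of the second run, with the remaining control and a pair of 9 h arrays, had medians of 7.77 or more. Identical values on 2 or more of the 3 second-run arrays were found for 62.3% of probe sets, and for no more than 0.110% in any 3 first-run arrays. The second run was therefore left out of the fit, and all values below are log2 levels on the 10 arrays of the first run. The replicates correlated at 0.993 (controls) and 0.995 (48 h) over 19938 genes. The number of arrays limits the precision, with a median standard error of 0.11 for a log2 difference between 48 h and control. The labels do not say that replicates came from separate mice, so the spread behind each p is that of these samples and could be technical. The tissue label was borne out by its markers: Slc4a1, the anion exchanger of red cells, lay at 13.47 and 13.34 on the 48 h arrays, and Elane, the neutrophil elastase, at 13.03 and 13.09.

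At 48 h the marrow differed from control in few genes. A gene is said to have risen or fallen where its limma p was under 0.05 after Benjamini-Hochberg adjustment across all 19938 genes. By that rule 31 genes changed (0.155% of all), of which 27 rose (0.135%) and 4 fell (0.0201%). Of the 27 rises, 23 were of genes on a hepatocyte list, and all 4 falls were of genes on a small intestine list. The rises outside those lists were of Plek2, Podxl, Ubxn2b and Mup5, and 0 marrow genes fell by limma. At an unadjusted p under 0.05 limma placed 2348 genes (11.8%) apart, 1566 of them higher (7.85%) and 782 lower (3.92%). Both 48 h arrays lay above both controls for 24.2% of all genes and below both for 16.0%. These all-gene shares, and those at an unadjusted p, are the background of the list counts below. The median difference over all genes was 0.02.

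**Figure D1:**
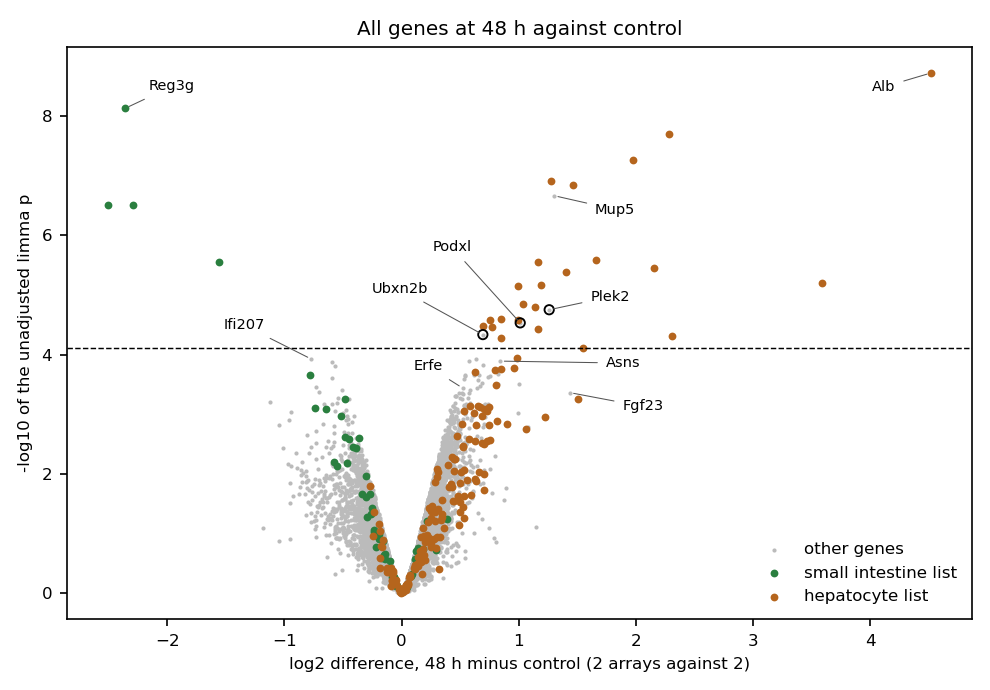
Each point is 1 of 19938 genes, with the log2 difference between the means of the 2 arrays at 48 h and the 2 controls across, and the −log10 of limma's unadjusted p upward; points above the dashed line pass an adjusted p of 0.05. Most points above the line are genes of the hepatocyte list on the right (brown) and of the small intestine list on the left (green), and the open circles mark Plek2, Podxl and Ubxn2b.

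Plek2, a pleckstrin relative that supports the membrane skeleton of erythroblasts, had the largest rise outside the other-tissue lists after Mup5. Its level was 7.73 and 8.27 on the controls and 9.29 and 9.23 at 48 h. Both 48 h arrays lay above both controls, and the gap between the controls was wider than that between the 48 h arrays. The rise was 1.26 ± 0.16 (n = 2 against 2), or 2.39-fold, with a limma adjusted p of 0.0176. Here and below ± gives limma's moderated standard error. Its spread is pooled over the 6 groups of the 10 arrays and shrunk across genes, so it is not that of the compared arrays alone. At 12 h Plek2 lay at 9.33 and 9.34, and at 15 h at 9.61 and 9.50. The 48 h level differed from the mean of 12 and 15 h by −0.18 ± 0.13, which did not pass (limma adjusted p = 0.57). Every 12 and 15 h array lay above both 48 h arrays.

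Podxl, a sialomucin of the cell surface found on progenitors and on stressed erythroid cells, had levels of 7.41 and 7.27 on the controls and 8.36 and 8.35 at 48 h. The groups did not overlap, and the rise was 1.01 ± 0.13 or 2.02-fold (limma adjusted p = 0.0244). At 12 h it lay at 7.98 and 8.32 and at 15 h at 8.87 and 8.62, so the 48 h arrays fell within the range of those times. The 4 h array, at 7.27, lay with the controls.

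Ubxn2b, a cofactor of the p97 ATPase, lay at 9.58 and 9.55 on the controls and at 10.27 and 10.25 at 48 h. It rose by 0.69 ± 0.10 or 1.62-fold (limma adjusted p = 0.0328), and its 48 h arrays were the highest of the 10. At 12 h it lay at 10.08 and 9.89 and at 15 h at 9.91 and 9.87. The difference from those times, 0.32 ± 0.08, did not pass (limma adjusted p = 0.152).

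Plek2, Podxl and Ubxn2b lay near the threshold, and passed in 8, 8 and 7 of 14 alternative settings. Without 48 h replicate 1 their adjusted p-values were 0.165, 0.217 and 0.267, and without 48 h replicate 2 they were 0.0757, 0.0940 and 0.112. In such fits the lone array is assumed to vary like the other groups, which supply the spread. Without control replicate 1, Plek2 passed at 0.99 (limma adjusted p = 0.0290), while Podxl (0.105) and Ubxn2b (0.140) did not. With only the arrays of the contrast in the fit, limma adjusted p was 0.238 for Plek2, 0.0586 for Podxl and 0.238 for Ubxn2b. When the genes of the other-tissue lists were taken out before the fit, Mup5 was the 1 gene that passed.

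Erfe, the hormone of erythroid precursors that lowers hepcidin, lay at 7.31 and 7.26 on the controls and at 7.81 on both 48 h arrays. The 48 h arrays lay above the controls with no overlap, by 0.52 ± 0.10 or 1.44-fold, and this did not pass (limma adjusted p = 0.117). Of 14 alternative settings 12 did not pass either, with adjusted p-values up to 0.455, among them the 4 fits without 1 array of the contrast. It passed with all 13 arrays and the run as a fixed term (0.49, limma adjusted p = 0.0387) or as a random block (0.49, limma adjusted p = 0.0218). Against the middle times the difference was larger. Erfe lay at 8.67 and 8.84 at 12 h and at 9.07 and 9.01 at 15 h, and had fallen by 1.09 ± 0.08 at 48 h (limma adjusted p = 0.000644). Every 12 and 15 h array lay above both 48 h arrays, and the fall passed under all 16 alternative settings tried, with adjusted p-values up to 0.0146.

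Cish, the feedback inhibitor of cytokine receptors that STAT5 induces, was 7.56 and 7.83 on the controls and 8.21 and 8.31 at 48 h. That difference, 0.56 ± 0.19, did not pass (limma adjusted p = 0.307), although the groups did not overlap. At 12 h Cish lay at 9.23 and 9.75 and at 15 h at 9.88 and 9.46, and it fell by 1.32 ± 0.16 from there to 48 h (limma adjusted p = 0.0159). Pim1, a survival kinase that STAT5 induces, fell by 0.76 ± 0.11 against 12 and 15 h (limma adjusted p = 0.0379), from between 10.78 and 11.02 to 10.26 and 10.09. Its 48 h arrays overlapped the controls, at 9.92 and 10.23.

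**Figure D2:**
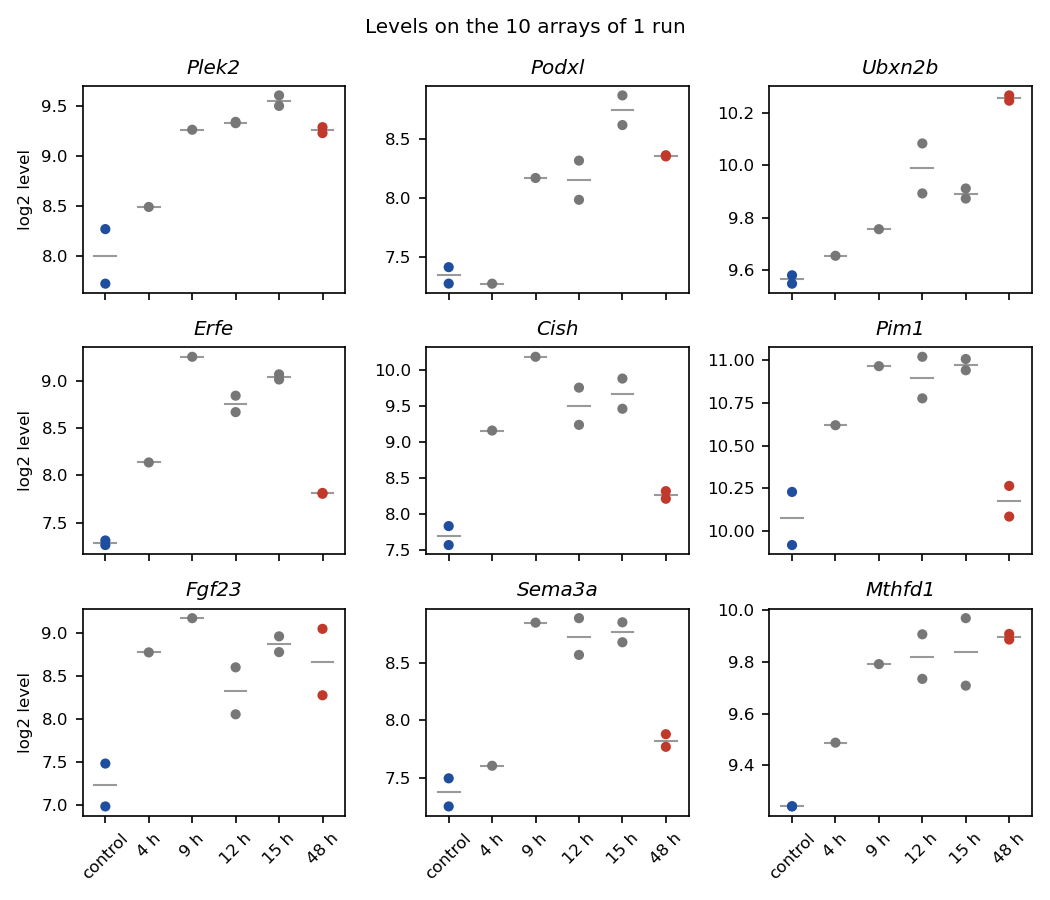
Log2 levels of 9 genes on the 10 arrays of the first run, by time after phlebotomy (controls blue, 48 h red, other times grey; each point is 1 array and each line the mean of its time; the scale differs between panels). At 48 h Podxl lay within the range of 12 and 15 h. Plek2 lay slightly below that range without passing, Erfe, Cish, Pim1 and Sema3a lay below it and passed, and Ubxn2b was at its highest.

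The promoters of Plek2, Erfe and Cish are shown because these erythropoietin-responsive genes differed from 12 and 15 h to unlike extents. At 48 h Plek2 was lower by 0.18, which did not pass, while Erfe fell by 1.09 and Cish by 1.32. The difference between the genes was not tested. These genes were chosen after their values were seen. The sequences are from RefSeq on GRCm38.p6 and give the 250 bases before each start site, 5′ to 3′ on the gene's strand. Plek2 lies at chr12:78906939-78907188 (minus strand), Erfe at chr1:91366180-91366429 (plus strand) and Cish at chr9:107296409-107296658 (plus strand). Capitals mark matches, on either strand, to CCNCNCCC, a CACCC-type motif that the erythroid factor KLF1 can bind.
Plek2: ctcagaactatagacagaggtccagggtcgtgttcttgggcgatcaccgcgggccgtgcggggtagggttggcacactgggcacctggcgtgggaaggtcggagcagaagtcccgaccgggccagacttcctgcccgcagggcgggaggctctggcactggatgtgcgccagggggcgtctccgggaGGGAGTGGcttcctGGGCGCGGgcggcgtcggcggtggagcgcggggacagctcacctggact
Erfe: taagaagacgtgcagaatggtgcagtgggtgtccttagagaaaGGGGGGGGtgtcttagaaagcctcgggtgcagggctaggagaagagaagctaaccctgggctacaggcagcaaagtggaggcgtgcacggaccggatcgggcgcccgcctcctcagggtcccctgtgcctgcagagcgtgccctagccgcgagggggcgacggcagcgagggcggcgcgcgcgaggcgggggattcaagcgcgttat
Cish: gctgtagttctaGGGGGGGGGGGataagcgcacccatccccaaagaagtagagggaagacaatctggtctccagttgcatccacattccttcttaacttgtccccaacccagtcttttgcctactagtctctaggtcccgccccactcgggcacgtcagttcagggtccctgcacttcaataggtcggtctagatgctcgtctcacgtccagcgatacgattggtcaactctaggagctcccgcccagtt
Plek2 held 2 matches. The 1 match of Erfe is a bare run of G, and the 4 matches of Cish overlap in 1 run of G. Of 32851 promoters of the same length 45.9% hold a match. The GATA factor motifs, AGATAA and its variant TGATAA, were searched on both strands and are found in 16.6% of all promoters, and the STAT motif TTCNNNGAA in 7.02%. Neither was found in these windows of Plek2, Erfe and Cish, which says only that those letters are not there.

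Of 20 measured erythropoietin and STAT5 targets 2 rose, Plek2 and Podxl, and 0 fell. Both 48 h arrays lay above both controls for 6 of the 20 (30.0%, against 24.2% of all genes) and below both for 1 (5.0%, against 16.0%). The median difference was 0.11, and 0.02 without control replicate 1 and 0.25 without control replicate 2. Gfi1b, a repressor needed for erythroid and platelet precursors, had a control mean of 11.21 and stood at 11.84 and 11.65 at 48 h (0.53 ± 0.15, limma adjusted p = 0.266). Erfe, Cish and Pim1 of this list fell against 12 and 15 h.

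Of 26 measured genes of hepcidin control and BMP signalling 0 passed by limma. At an unadjusted limma p under 0.05, 1 was higher and 7 were lower (7.85% and 3.92% of all genes). Both 48 h arrays lay below both controls for 10 (38.5%, against 16.0% of all genes) and above both for 1 (3.8%, against 24.2%). The median was −0.20, −0.07 without control replicate 1, −0.13 without 48 h replicate 1 and −0.31 without 48 h replicate 2. Twsg1, an extracellular modulator of BMP ligands, differed by −0.01 ± 0.12 (limma adjusted p = 0.985), and its sign turned with the run as a term, with centred arrays, and without control replicate 1 or 48 h replicate 1. Id3, a BMP target, lay at 8.88 and 8.47 on the controls and at 7.71 and 8.17 at 48 h (−0.73 ± 0.17, limma adjusted p = 0.205). The ligands Bmp4 and Bmp2 differed by −0.63 ± 0.16 and −0.53 ± 0.19 without passing, and Hamp, hepcidin itself, by 0.19 ± 0.15 at a low level.

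Erythroid transcription factors had a small median difference from control at 48 h. Of 25 such factors 0 passed by limma. At an unadjusted limma p under 0.05, 5 were higher and 1 lower (7.85% and 3.92% of all genes). Both 48 h arrays lay above both controls for 8 (32%, against 24.2% of all genes) and below both for 4 (16%, against 16.0%). The median was 0.09. Its sign turned without control replicate 1 (−0.02), and it was 0.06 without 48 h replicate 1 and 0.23 without control replicate 2. Gata1, the founding factor of the lineage, lay at 9.69 and 10.10 on the controls and at 10.41 and 10.23 at 48 h (0.43 ± 0.15). Klf1, which drives globin and membrane genes, lay at 10.08 and 10.60 and then at 10.90 and 10.65 (0.44 ± 0.17). For each the controls differed from each other by more than the 48 h arrays did. Epor, the erythropoietin receptor, differed by 0.26 ± 0.19 and Kit, the receptor of stem cell factor on early precursors, by 0.03 ± 0.11, with overlapping arrays.

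Heme synthesis had 25 measured genes, of which 0 passed by limma. At an unadjusted limma p under 0.05, 11 were higher and 1 was lower (7.85% and 3.92% of all genes). Both 48 h arrays lay above both controls for 11 (44.0%, against 24.2% of all genes). The median was 0.24, and 0.08 without control replicate 1 and 0.16 without 48 h replicate 1. Tmem14c, which carries porphyrin precursors into mitochondria, lay at 10.57 and 10.66 on the controls and at 11.06 and 11.03 at 48 h (0.42 ± 0.09, limma adjusted p = 0.158). The enzymes Alad, Urod and Cpox differed by 0.46 ± 0.12, 0.43 ± 0.12 and 0.53 ± 0.15. Alas2, the rate-limiting erythroid enzyme, differed by 0.08 ± 0.10 and its 48 h arrays, at 13.18 and 13.15, overlapped the controls.

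Iron uptake, storage and export showed no shift as a group, with a median of −0.0030 over 29 genes and 0 past the threshold by limma. At an unadjusted limma p under 0.05, 4 were higher and 0 lower (7.85% and 3.92% of all genes). Tfrc, the transferrin receptor, lay at 11.53 and 12.00 on the controls and at 12.18 and 12.19 at 48 h (0.42 ± 0.14, limma adjusted p = 0.313). Tfr2, its relative that binds the erythropoietin receptor, differed by 0.47 ± 0.15. Hpx, the heme carrier hemopexin made by liver, was 8.05 on 48 h replicate 1 and 6.85 on replicate 2, against 6.62 and 6.51 on the controls. It is 1 of the 4 higher genes counted above.

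The 29 measured red cell membrane and blood group genes had a median of 0.27 at 48 h, with 0 past the threshold by limma. At an unadjusted limma p under 0.05, 8 were higher and 0 lower (7.85% and 3.92% of all genes). For 10 (34.5%, against 24.2% of all genes) both arrays lay above both controls. Control replicate 2 lay above control replicate 1 by a median of 0.39 over the 29 genes. The 48 h median was 0.03 without control replicate 1, 0.44 without control replicate 2 and 0.16 without 48 h replicate 1. Icam4, a red cell adhesion protein, lay at 7.55 and 8.02 on the controls and at 8.34 on both 48 h arrays (0.55 ± 0.14), and Slc4a1 differed by 0.07 ± 0.13. Late erythroblast enzymes (32 genes) followed the same pattern, with a median of 0.17 and 0 past the threshold by limma. At an unadjusted limma p under 0.05, 5 were higher and 0 lower (7.85% and 3.92% of all genes). The median was 0.00 without control replicate 1, 0.11 without 48 h replicate 1 and 0.36 without control replicate 2. The 5 measured globin genes, embryonic or minor ones such as Hbb-y and Hba-x, had a median of 0.12 and 0 calls by limma, also at an unadjusted p under 0.05. Their median was −0.0039 without control replicate 1 and 0.26 without control replicate 2, and the adult globins were not analysed here.

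Genes of DNA copying showed small differences that ran 1 way. Of 45 measured DNA replication genes 43 were higher at 48 h by any amount, against 54.8% of all genes, and 38 (84.4%) had both 48 h arrays above both controls, against 24.2% of all genes. None passed by limma, and 30 were higher and 0 lower at an unadjusted p under 0.05, against 7.85% of all genes higher. The median was 0.27, and 0.21 to 0.37 with 1 of the 4 arrays left out. Control replicate 2 lay above control replicate 1 by a median of 0.20. Orc6, a subunit of the origin recognition complex, lay at 10.35 and 10.43 on the controls and at 10.79 and 10.86 at 48 h (0.43 ± 0.09, limma adjusted p = 0.165). Mcm6, a subunit of the replicative helicase, lay at 11.05 or below on the controls and at 11.39 on both 48 h arrays (0.37 ± 0.09, limma adjusted p = 0.201). For Orc6 and Mcm6 the gap between groups was several times that within them. Gins4 of the helicase complex and Pold2 of polymerase delta each differed by 0.32 ± 0.09.

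Against 12 and 15 h the median of the DNA replication genes was 0.24, with 0 past the threshold. Their median deviation from the control mean lay between −0.0045 and 0.039 at 12 and 15 h and was 0.30 and 0.25 on the 48 h arrays. Mitosis and kinetochore genes (40 measured) had a smaller median of 0.13, which was −0.04 without control replicate 1 and 0.27 without control replicate 2. By limma 0 passed, and 5 were higher and 0 lower at an unadjusted p under 0.05 (7.85% and 3.92% of all genes). Birc5, a survivin needed for chromosome segregation, differed by 0.32 ± 0.10, and Cdk1, the mitotic kinase, by 0.21 ± 0.09.

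MYC targets and ribosome biogenesis genes were higher by any amount at 48 h in 33 of 33 measured members, against 54.8% of all genes. Both 48 h arrays lay above both controls for 30 of them (90.9%, against 24.2% of all genes). None passed by limma, while 22 were higher and 0 lower at an unadjusted p under 0.05, against 7.85% of all genes higher. The median was 0.31, and 0.28 to 0.33 with 1 of the 4 arrays left out, while the controls differed from each other by a median of −0.03. Wdr12, a factor of large subunit assembly, lay at 8.48 and 8.25 on the controls and at 8.77 and 9.00 at 48 h (0.53 ± 0.11, limma adjusted p = 0.170). Wdr43 and Utp4, both of the small subunit processome, lay at 9.83 and 9.82 and at 9.60 and 9.64 on the controls, and at 10.15 and 10.28 and at 9.99 and 10.06 at 48 h. Unlike DNA replication, this list had a median of −0.07 at 48 h against 12 and 15 h, when its arrays stood 0.28 to 0.46 above the control mean.

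Among the smallest p-values short of the threshold on the higher side were those of Asns and Mthfd1. Asns, asparagine synthetase, lay at 10.33 and 10.75 on the controls and at 11.41 and 11.35 at 48 h (0.84 ± 0.13, limma adjusted p = 0.0711). Mthfd1, a cytosolic enzyme of folate metabolism, was 9.24 on both controls and 9.89 and 9.91 at 48 h (0.66 ± 0.11, limma adjusted p = 0.0910). Both genes had no overlap between groups, and at 12 and 15 h Asns lay from 11.12 to 11.24 and Mthfd1 from 9.71 to 9.97. Of 27 genes of the ATF4 amino acid response, among them Asns, Shmt2 (0.50 ± 0.10) and Mthfd2 (0.41 ± 0.10), 0 passed by limma. At an unadjusted limma p under 0.05, 6 were higher and 1 lower (7.85% and 3.92% of all genes), and the median was 0.09. Others short of the threshold were Pbdc1 (0.63 ± 0.10), Josd1, a deubiquitinase (0.57 ± 0.09), Tlcd4 (0.70 ± 0.11), the chloride channel Clcn2 (0.62 ± 0.11) and Timm17a of the mitochondrial import machinery (0.55 ± 0.09).

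Chaperones and sterol enzymes leaned the same way. Of 23 heat shock proteins 0 passed by limma, and 10 were higher and 1 lower at an unadjusted p under 0.05 (7.85% and 3.92% of all genes). Both 48 h arrays lay above both controls for 13 (56.5%, against 24.2% of all genes), and the median was 0.19. Cct8, a subunit of the chaperonin that folds actin and tubulin, lay at 9.69 and 9.62 on the controls and at 10.07 and 10.27 at 48 h. Of 20 cholesterol synthesis genes 0 passed by limma. At an unadjusted limma p under 0.05, 7 were higher and 0 lower (7.85% and 3.92% of all genes). Both 48 h arrays lay above both controls for 13 (65.0%, against 24.2% of all genes), and the median was 0.18. Nsdhl, a sterol dehydrogenase, lay at 8.82 and 8.79 and then at 9.17 and 9.19.

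**Figure D3:**
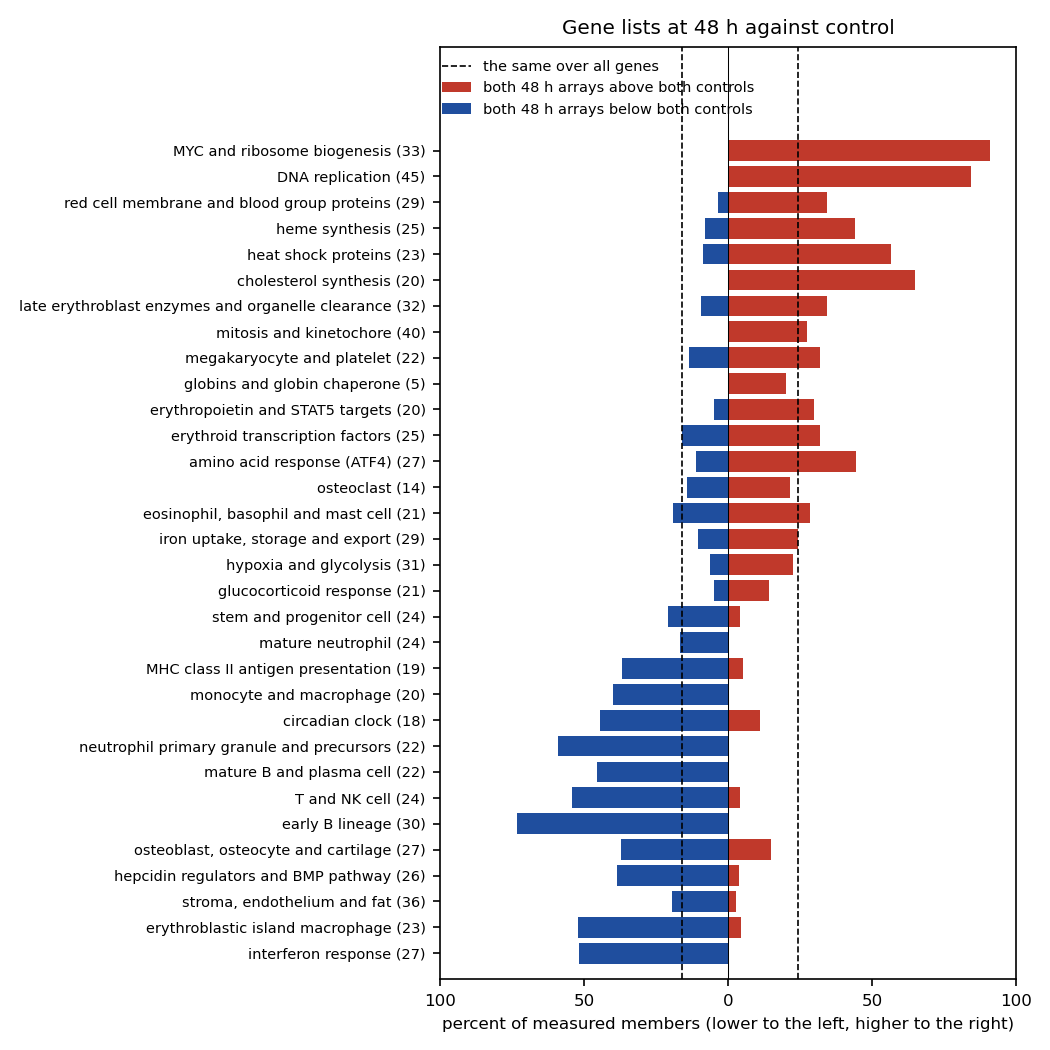
Share of the measured members (number in brackets) of each marrow list with both 48 h arrays above both controls (red, to the right) or below both (blue, to the left); dashed lines give the same shares over all genes, 24.2% and 16.0%. MYC and ribosome biogenesis (90.9%) and DNA replication (84.4%) reach farthest to the right and early B lineage (73.3%) farthest to the left.

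Lists of B cells, neutrophils, macrophages, T cells and antigen presentation had medians below 0, and 0 of their members passed. In bulk marrow fewer cells of a type and less of their RNA per cell cannot be told apart. Of 30 early B lineage genes 28 were lower by any amount, against 9003 of all 19938 genes, 22 (73.3%) had both 48 h arrays below both controls, against 16.0% of all genes, and 0 had both above. By limma 0 passed, and 0 were higher and 6 lower at an unadjusted p under 0.05, against 3.92% of all genes lower. The median was −0.17, and −0.21 to −0.15 with 1 of the 4 arrays left out. Igll1, part of the pre-B cell receptor, lay at 11.81 and 11.37 on the controls and at 10.84 and 11.01 at 48 h (−0.67 ± 0.15, limma adjusted p = 0.178). Ebf1, a factor that specifies B cells, lay at 10.96 and 10.94 and then at 10.54 and 10.63, and Dntt, which adds bases at antibody gene joints, at 8.37 and 8.05 and then at 7.50 and 7.85. Against 12 and 15 h the median was 0.00080. The medians of 3 of those 4 arrays lay from −0.25 to −0.20 against the control mean, and that of 15 h replicate 2 at 0.025.

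Of 22 neutrophil primary granule and precursor genes 21 were lower by any amount (9003 of all 19938), and 13 (59.1%, against 16.0% of all genes) had both 48 h arrays below both controls. By limma 0 passed, with 0 higher and 5 lower at an unadjusted p under 0.05 (3.92% of all genes lower), and the median was −0.15. Elane lay at 13.27 and 13.30 on the controls (−0.23 ± 0.09), and Ctsg, cathepsin G, at 12.40 and 12.01 against 11.71 and 11.83 at 48 h (−0.43 ± 0.14). Mature neutrophil genes (24) had a median of −0.08, 0 calls by limma and 1 lower at an unadjusted p under 0.05. That median was −0.0065 without 48 h replicate 1, −0.14 without 48 h replicate 2 and −0.05 without control replicate 2.

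Macrophage genes lay lower on 48 h replicate 1 than on replicate 2. Of 23 genes of erythroblastic island macrophages, the cells that nurse erythroblasts and clear their nuclei, 0 passed by limma. At an unadjusted limma p under 0.05, 0 were higher and 8 lower (3.92% of all genes lower). Both 48 h arrays lay below both controls for 12 (52.2%, against 16.0% of all genes). The median was −0.24, and −0.09 without 48 h replicate 1. Sdc3, a syndecan, lay at 10.30 and 10.02 on the controls and at 9.41 and 9.59 at 48 h (−0.66 ± 0.13, limma adjusted p = 0.152). Axl, a receptor for dying cells, lay at 10.46 and 10.36 and then at 9.99 and 10.09. Of 20 monocyte and macrophage genes 0 passed by limma and 6 were lower at an unadjusted p under 0.05 (0 higher), with a median of −0.13. Leaving out 48 h replicates 1 and 2 in turn gave −0.03 and −0.22, and leaving out control replicates 1 and 2 gave −0.07 and −0.25. Klf4, a monocyte factor, differed by −0.49 ± 0.11.

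Lymphoid and antigen-presentation lists gave like values. T and NK cell genes (24) had a median of −0.17, with 13 (54.2%, against 16.0% of all genes) below both controls. By limma 1 was higher and 3 were lower at an unadjusted p under 0.05 (7.85% and 3.92% of all genes). Mature B and plasma cell genes (22) had a median of −0.16 and MHC class II genes (19) of −0.09, each with 0 higher and 4 lower at that p. The mature B median was −0.10 without control replicate 1, −0.09 without 48 h replicate 1 and −0.26 without 48 h replicate 2, and that of MHC class II −0.15 without control replicate 1 and −0.14 without control replicate 2. Each of these lists had 0 members past the threshold. Cd3g, a chain of the T cell receptor complex, lay at 7.61 and 7.32 on the controls and at 6.65 and 7.10 at 48 h.

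Interferon-induced genes were lower by any amount in 27 of 27 measured members, against 9003 of all 19938 genes, and 14 (51.9%, against 16.0%) had both 48 h arrays below both controls. By limma 0 passed, and 0 were higher and 8 lower at an unadjusted p under 0.05 (3.92% of all genes lower). The median was −0.27, and it was −0.50 without control replicate 1 and −0.11 without control replicate 2, and control replicate 2 lay a median of 0.39 above control replicate 1. Rtp4, an interferon-induced chaperone, lay at 9.47 and 9.72 on the controls and at 8.80 and 8.98 at 48 h (−0.70 ± 0.13, limma adjusted p = 0.127). Ifit3, which binds foreign RNA together with its relatives, lay at 9.40 and 9.95 and then at 8.50 and 8.97. The medians at 12 and 15 h were also below the control mean, at −0.64 to −0.19, and 48 h differed from those times by a median of 0.02.

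Among lower marrow genes, none past the threshold, Ifi207 and Ifi209 had the smallest p-values and are not on that list. Ifi207, an interferon-inducible DNA sensor relative, lay at 11.25 and 11.56 on the controls and at 10.55 and 10.71 at 48 h (−0.77 ± 0.12, limma adjusted p = 0.0697). Ifi209 and Ifi206, from the same gene cluster, differed by −0.59 ± 0.09 and −0.59 ± 0.10, and probes shared by near-identical copies of this cluster make their separate values uncertain. Ly6i differed by −0.73 ± 0.13, Gfra2, a receptor of neurturin, by −0.57 ± 0.09, Ly96, a partner of Toll-like receptor 4, by −0.55 ± 0.11, and the long noncoding RNA Firre by −0.55 ± 0.10, none past the threshold. Zfp706 differed by −0.51 ± 0.09 on the probe set used and by −0.02 on its other probe set. Clec2h (−0.60 ± 0.12) stood at 10.68 on the 4 h array, where intestinal genes were high.

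**Figure D4:**
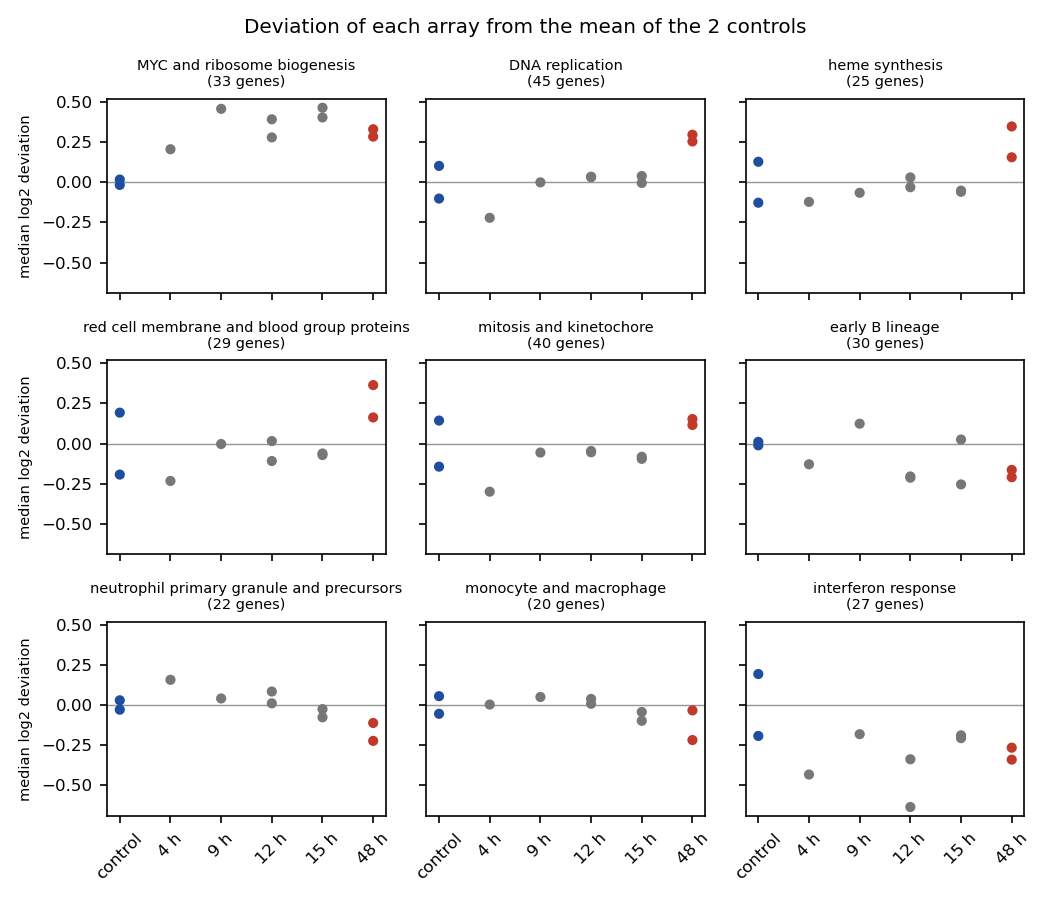
Median log2 deviation of 9 lists from the mean of the 2 controls on each of the 10 arrays, by time after phlebotomy (controls blue, 48 h red, other times grey). The 2 controls lie together for MYC and ribosome biogenesis and for early B lineage, and apart by 0.39 for red cell membrane genes and for interferon response genes.

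The medians of the bone list and of the stroma list were farther apart between the controls (−0.50 and −0.39) than between 48 h and control. The 27 osteoblast, osteocyte and cartilage genes had a median of −0.19 at 48 h, −0.04 without control replicate 1 and −0.42 without control replicate 2. By limma 0 passed, with 3 higher and 6 lower at an unadjusted p under 0.05 (7.85% and 3.92% of all genes). Fgf23, the phosphate hormone of osteocytes that marrow also makes after blood loss, stood at 7.48 and 6.98 on the controls and at 9.05 and 8.28 at 48 h. The 48 h arrays lay above both controls by 1.43 ± 0.27 or 2.70-fold, which did not pass (limma adjusted p = 0.127). It passed in 2 of 14 alternative settings, without 48 h replicate 2 (1.82, limma adjusted p = 0.0486) and with the run as a random block (limma adjusted p = 0.0134), and not without 48 h replicate 1 (1.05, limma adjusted p = 0.423) or with the run as a fixed term (limma adjusted p = 0.0597). Its 12 and 15 h arrays lay from 8.06 to 8.97, below 48 h replicate 1 and on both sides of replicate 2. Col1a1 and Col1a2, the chains of bone collagen, differed by −0.79 ± 0.21 and −0.89 ± 0.26. The 36 stroma, endothelium and fat genes had a median of −0.23 (−0.09 without control replicate 1, −0.39 without control replicate 2, −0.10 without 48 h replicate 1). By limma 0 of them passed, with 0 higher and 8 lower at an unadjusted p under 0.05 (7.85% and 3.92% of all genes).

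Set against the mean of 12 and 15 h, 55 genes changed (0.276%) by limma, 46 higher (0.231%) and 9 lower (0.0451%) at 48 h. This comparison uses no control array, and its genes below were chosen after their values were seen. Of the 46 rises 34 were on the hepatocyte list, and 24 genes were called in both comparisons, 23 of the hepatocyte list and Mup5. The 9 falls were all of genes outside the other-tissue lists, among them Erfe, Cish and Pim1.

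Sema3a, a secreted guidance protein, lay at 8.57 and 8.89 at 12 h, at 8.68 and 8.85 at 15 h, and at 7.77 and 7.88 at 48 h. It fell by 0.92 ± 0.12 (limma adjusted p = 0.0168), and at 48 h lay above both controls at 7.25 and 7.50. Ankrd36 fell by 0.83 ± 0.09 (limma adjusted p = 0.00677), from between 6.66 and 6.93 to 6.00 and 5.94. Like Sema3a it had no overlap with the middle times. The other falls were of Plod2, a collagen lysyl hydroxylase, by 1.29 ± 0.19, Mamdc2, a matrix proteoglycan, by 1.32 ± 0.21, Flrt2, a membrane guidance protein, by 0.73 ± 0.09, and Dtna, a dystrobrevin, by 0.76 ± 0.11. The controls of Plod2 lay apart, at 10.30 and 9.54.

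Of the rises against 12 and 15 h, 12 lay outside the other-tissue lists. Tac2, the neurokinin B precursor, lay at 8.65 and 8.49 at 12 h, at 8.12 and 8.45 at 15 h, and at 10.08 and 9.95 at 48 h. It rose by 1.58 ± 0.21 (limma adjusted p = 0.0224), and control replicate 2, at 9.38, lay nearer to 48 h than control replicate 1 at 8.48. Rragd, a GTPase that signals amino acids to mTORC1, rose by 0.81 ± 0.12, Stard10, a lipid transfer protein, by 0.65 ± 0.10, Hace1, a ubiquitin ligase, by 0.56 ± 0.08, the anion transporter Slc26a1 by 0.75 ± 0.12, Ppp6r2, a phosphatase subunit, by 0.53 ± 0.08, and the transcript 6030468B19Rik by 1.12 ± 0.15. The rest, Mup5, Cyp2c23, Cyp4a31, AI182371 and Tat, include genes known from liver, such as tyrosine aminotransferase (Tat, 0.53 ± 0.08). Of the 21 genes outside the other-tissue lists called here, Erfe and Mup5 passed in every alternative that could be run for them, Ankrd36 in 15 of 16, Cish in 11, and Sema3a and Flrt2 in 9. The other 15 genes passed in 4 to 8 of their 15 or 16 alternatives, with Mamdc2 in 4, Plod2 and Slc26a1 in 5, and Pim1 and Dtna in 6. Mamdc2, Plod2 and Dtna did not pass with the run as a fixed term (limma adjusted p = 0.0893, 0.104 and 0.0739).

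Liver transcripts were the largest part of the 48 h difference and are set aside from the marrow genes. Alb, serum albumin, lay at 6.87 and 7.23 on the controls and at 11.69 and 11.44 at 48 h, a rise of 4.52 ± 0.19 or 22.9-fold (limma adjusted p = 3.76e-05). Both 48 h arrays stood far above the other 8 arrays, where Alb lay from 6.26 to 7.23. Ahsg, fetuin A, rose by 2.15 ± 0.22 from 5.90 and 5.94 to 8.48 and 7.67, and Fgg, the fibrinogen gamma chain, by 1.98 ± 0.12 from 4.77 and 4.63 to 6.82 and 6.54. Of 178 measured hepatocyte genes 23 rose and 0 fell, and 104 (58.4%, against 24.2% of all genes) had both 48 h arrays above both controls. The median of the 178 genes was 0.31. Their summed linear level was 14432 and 14543 on the controls and 23317 and 20492 at 48 h, higher on replicate 1. Fga, the fibrinogen alpha chain and also a defining marker, lay at 5.68 and 5.66 on the controls and at 5.70 and 5.60 at 48 h. Mup5 rose by 1.30 ± 0.10 (limma adjusted p = 0.000612) from 4.06 and 4.20 to 5.41 and 5.46. It belongs to the major urinary protein family, near-identical genes of which liver makes several, so its own share of this signal is uncertain. Whether liver RNA or hepatocyte-type transcription in marrow gave these values was not tested.

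The 4 falls were of intestinal genes. Reg3g, an antimicrobial lectin of gut epithelium, lay at 7.61 and 7.54 on the controls and at 5.27 and 5.17 at 48 h, and the change was −2.36 ± 0.12 (limma adjusted p = 7.32e-05). It lay at 12.32 on the 4 h array and from 5.40 to 6.11 on the other arrays, so the controls stood above all arrays but that of 4 h. Reg3b, its relative, changed by −2.51 ± 0.19, Fabp2, the intestinal fatty acid binding protein, by −2.29 ± 0.17, and Clca4b by −1.56 ± 0.15. Of 66 measured small intestine genes 4 fell, and the 4 that rose were also on the hepatocyte list. The summed linear level of the list was 5863 and 6040 on the controls, 5941 and 5574 at 48 h and 44160 at 4 h. It was 5035 on the 9 h array of the first run, 4844 and 4883 at 12 h, and 4863 and 4679 at 15 h. The 48 h sums include the 4 genes that rose. The part of intestinal RNA on the control arrays in these falls was not tested.

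Skeletal muscle transcripts differed between the 48 h replicates. The 39 genes summed to 14212 on replicate 1 and 4788 on replicate 2, against 8059 and 7609 on the controls, and 0 passed by limma, also at an unadjusted p under 0.05. Acta1, skeletal actin, lay at 10.60 on replicate 1 and 8.31 on replicate 2, on either side of the controls at 9.38 and 9.31. The part of muscle RNA in the marrow values of these arrays was not tested.

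**Figure D5:**
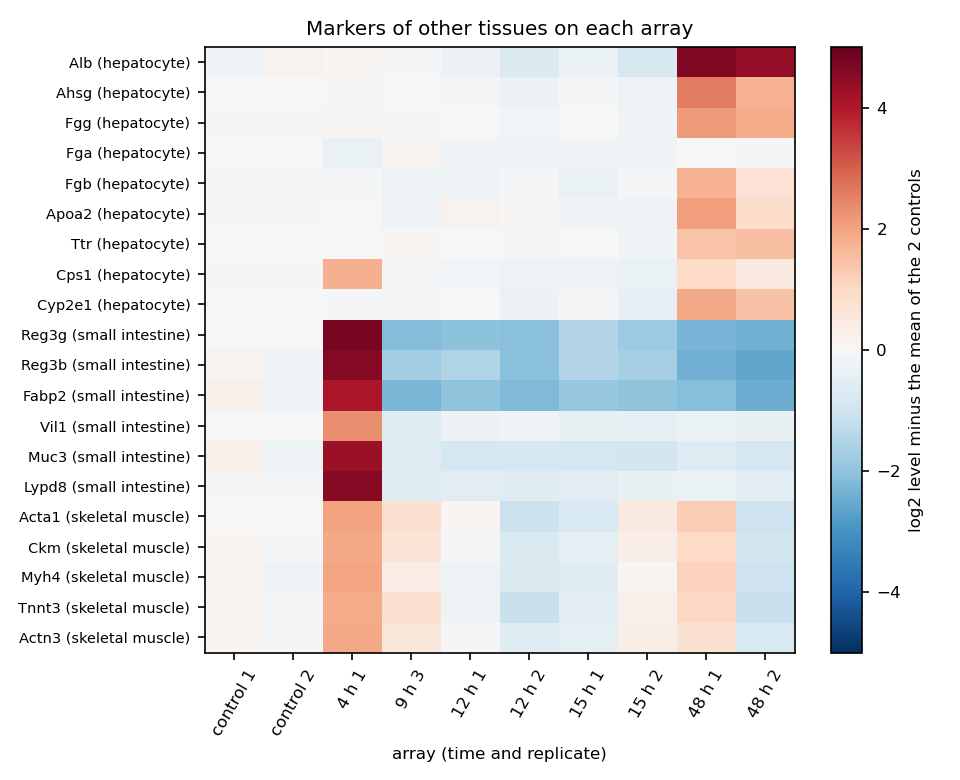
Log2 level minus the mean of the 2 controls for defining markers of hepatocytes, small intestine and skeletal muscle on each of the 10 arrays. Hepatocyte markers other than Fga are high on both 48 h arrays, Reg3g, Reg3b and Fabp2 are low on all arrays but the controls and 4 h, and muscle markers are high on 48 h replicate 1 and low on replicate 2.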

How the data were processed

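RNA of 13 femoral bone marrow samples was measured on 1-colour Affymetrix Mouse Gene 1.0 ST arrays. The authors deposited log2 levels made with RMA, per the submitters' processing notes; its version, and which arrays were normalized together, are not given in the sources used here. RMA shares 1 distribution between arrays and shrinks low differences, so log2 changes of dim genes are understated. Of 35557 probe sets 21789 have 1 gene symbol by the platform annotation, 1621 several and 12147 none listed; 21698 symbols were updated through Entrez identifiers. For 999 genes with several probe sets the brightest was used, which left 19938 genes.

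The 10 arrays of the first run were fitted in 6 groups with limma 3.58.1 (R 4.3.3, lmFit and eBayes, 4 residual and 5.17 prior degrees of freedom). The contrasts were 48 h minus control and 48 h minus the mean of 12 and 15 h, with Benjamini-Hochberg adjustment over 19938 genes and a threshold of 0.05. The fit was run on simulated data with independent noise around the control means, without the shifts between replicates seen here. That run is no test of the calls. Summed linear levels add 2 to the power of each gene's log2 level.

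The 35 lists (32 of marrow, 3 of other tissues) were written from textbook knowledge, and they and the comparison were chosen with earlier results of these data known. Named genes were the largest rises and falls past the threshold outside the other-tissue lists, unfilled places going to the smallest p-values, up to 4 genes of each marrow list by p, and 12 genes of erythropoiesis and iron. Alternatives changed the arrays, the filter, the summary, the normalization, the variance model and the genes in the fit. Figures were drawn with matplotlib 3.10.9 (Python 3.11.15).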

Additional observations from a re-analysis of the deposited data

Results flagged for a closer look

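The level at 48 h differed from that at 12 and 15 h in 55 genes by limma's test of that difference. Among them Erfe was lower at 48 h by a log2 difference of −1.09, Cish by −1.32, Sema3a by −0.92 and Pim1 by −0.76, each on both 48 h arrays against all 4 arrays of the middle times.

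Signals outside the comparisons were seen on arrays they do not use. Alb on 9 h replicate 1 of the second run stood 1.94 above control replicate 3 of that run. Reg3g on the 4 h array stood 4.74 above the mean of control replicates 1 and 2.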

How the results depend on the processing

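The 31 genes called against control became 75 with all 13 arrays and the run as a fixed term, 143 with the run as a random block, 13 with the arrays of the contrast alone, 13 after a filter on the dimmest genes, and 1 without the genes of the other-tissue lists, and 12 to 205 with 1 of the 4 arrays left out. The 205 were called without control replicate 2 (81 higher, 124 lower, 119 of the latter outside the other-tissue lists) and the 12 without control replicate 1; without 48 h replicate 1 there were 15 and without 48 h replicate 2 36. The 55 genes called against 12 and 15 h became 165, 457, 499, 17 and 3 under the same settings in that order, and 20 to 73 with 1 array left out (25, 21, 21 and 21 without 12 h replicates 1 and 2 and 15 h replicates 1 and 2, 20 and 73 without 48 h replicates 1 and 2). The cause of these shifts was not tested. Testing every probe set (13 and 19 of the calls shared), centring, normalizing again, a variance trend and leaving out the 4 h array, the last and the list medians chosen after the data were seen, kept both totals within 1.5 times. Of the named genes, Twsg1 turned sign with the run as a fixed term (0.020) or random block (0.015), with centred arrays (0.0033), and with 1 array left out (−0.15 to 0.13), and Kit with quantile normalization (−0.0015) and with 1 array left out (−0.015 to 0.081). Leaving out 1 array also turned the sign of Hbq1b (−0.19 to 0.65), Hba-x (−0.026 to 0.22), Stfa3 (−0.55 to 0.10), Hamp (−0.017 to 0.40), Epor (−0.048 to 0.58), Slc4a1 (−0.096 to 0.23) and Clec4e (−0.0083 to 0.34); none of these passed a test in either direction. No paired analysis was possible because the labels give no replicate numbers that pair samples across times. With 2 arrays a group, differences of several times their standard error also missed the threshold. Examples are Erfe (0.52 ± 0.10, limma adjusted p = 0.117) and Fgf23 (1.43 ± 0.27, limma adjusted p = 0.127). A difference that did not pass is therefore not shown to be absent.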

Other observations

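Further marrow lists gave these values at 48 h against control, with 0 members past limma's threshold in each. Of 21 eosinophil, basophil and mast cell genes 2 were higher and 4 lower at an unadjusted p under 0.05, with a median of 0.01 that turned to −0.03 without control replicate 1 and −0.07 without 48 h replicate 2. Mcpt8, a basophil protease, lay at 10.17 and 10.20 on the controls and at 9.62 and 9.81 at 48 h (−0.47 ± 0.10, limma adjusted p = 0.167), and Prss34, another basophil protease, differed by −0.37 ± 0.10. Of 22 megakaryocyte and platelet genes 5 were higher and 1 lower at that p (7.85% and 3.92% of all genes). Their median of 0.12 was 0.00 without control replicate 1, 0.06 without 48 h replicate 1 and 0.19 without 48 h replicate 2. Vwf, the von Willebrand factor, lay at 8.39 and 8.58 and then at 9.05 and 8.76. F5, coagulation factor V, lay at 9.35 and 9.32 and then at 9.63 and 9.66. P2ry12 went the other way, from 8.59 and 8.72 to 8.40 and 8.39. The megakaryocyte markers Pf4, Itga2b and Gp9 had 48 h arrays that overlapped the controls.

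Stem and progenitor genes (24) had a median of −0.06 with 0 higher and 1 lower at an unadjusted p under 0.05 by limma. Over all genes the shares at that p were 7.85% and 3.92%. Osteoclast genes (14) had a median of 0.03 with 1 and 0, and hypoxia and glycolysis genes (31) −0.05 with 1 and 1. Glucocorticoid response genes (21) had a median of −0.05 with 2, 1 of them Tat, and 1. With 1 of the 4 arrays left out these medians moved by more than 1.5 times: hypoxia to 0.04 without control replicate 1, −0.08 without control replicate 2 and 0.0076 without 48 h replicate 2, glucocorticoid to 0.04 and −0.13 without control replicates 1 and 2 and to 0.0051 and −0.10 without 48 h replicates 1 and 2. The osteoclast median moved to 0.08 and −0.11 without control replicates 1 and 2 and to 0.07 and −0.02 without 48 h replicates 1 and 2, and the stem cell median to −0.0023 without control replicate 1 and to −0.01 and −0.04 without 48 h replicates 1 and 2. Of 18 circadian clock genes 1 was higher and 3 were lower at that p. Their median was −0.15, and −0.04 without control replicate 1 and −0.32 without control replicate 2. Dbp, a clock output factor, lay at 8.35 and 8.17 on the controls and at 7.93 and 7.78 at 48 h, and at 7.55 to 7.76 at 12 and 15 h. Noct, a rhythmic phosphatase, lay at 8.74 and 9.28 on the controls and at 9.65 and 9.53 at 48 h. The hour of collection is not in the labels used here, so its part in these values was not tested.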
